A study of Rattus norvegicus with 12 samples.

Results

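The genes described here handle iron in the corpus luteum (CL) of the pregnant rat: Tfrc, the transferrin receptor, Slc11a2 and Slc40a1, which carry iron across membranes, Ireb2 and Aco1, the iron regulatory proteins, and Fth1, the ferritin heavy chain. They were taken from the array by gene symbol, with the probe set of highest mean where a gene had several, and all 6 were measured among 14509 genes. The set was selected on results of these same arrays, since the level of Tfrc across the treatment groups was known when it was drawn up. Its values in the treatment comparisons are therefore given as a description with no p-values, and counts of calls there are not read as tests.

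The CL makes progesterone throughout rat pregnancy and also makes estradiol through the enzyme aromatase. Harlan Wistar rats were deprived of estradiol with anastrozole, an aromatase inhibitor (AI), and in 1 group E2 (17β-estradiol) was given back, so the arrays ask what luteal estradiol does to luteal mRNA. The AI+E2 group received AI by mouth at 1 mg per kg body weight daily for 4 days, starting on day 12 of pregnancy, with E2 at 10 µg per day under the skin. The AI group received AI alone, the VEH group received vehicle on the same schedule, and these 3 groups gave CL on day 16, while the day 12 group was untreated. Each group had 3 animals and each animal 1 array. All groups were pregnant, both drugs were given systemically, and no E2 was given without AI, so an effect of E2 alone cannot be told apart from one that needs AI. The tissue was whole CL, in which fewer cells of a type and less mRNA per cell cannot be told apart.

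Most cells take up iron by binding transferrin at the transferrin receptor and bringing it into endosomes, where iron is freed and passes to the cytosol through Slc11a2. Iron that is not used is stored in ferritin or leaves through ferroportin, the product of Slc40a1. When iron is scarce, the iron regulatory proteins bind iron-responsive elements, which stabilises Tfrc mRNA and blocks translation of ferritin and ferroportin. Luteal cells need iron for the heme of their steroid-making cytochromes and for the iron-sulfur protein that feeds electrons to them. An array reads mRNA and neither translation nor iron.

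Tfrc is shown with the stretch just before its transcription start because it moved most of the genes described. The 250 bases come from RefSeq (GRCr8, chr11:81690319-81690568, minus strand), and the capitals mark ACGTG, the core that hypoxia-inducible factors bind, and TGACGT, the core of the cAMP response element.
Tfrc upstream: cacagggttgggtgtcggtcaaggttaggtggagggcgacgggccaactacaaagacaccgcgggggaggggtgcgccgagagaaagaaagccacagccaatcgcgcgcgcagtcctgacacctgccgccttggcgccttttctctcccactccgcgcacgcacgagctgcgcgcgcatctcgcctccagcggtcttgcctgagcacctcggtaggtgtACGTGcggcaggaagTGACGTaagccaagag
ACGTG lay 31 to 27 bases before the start and TGACGT 16 to 11 bases before it. On either strand, ACGTG was found in 16.9% of 27457 such windows and TGACGT in 7.25%, and the 2 motifs did not overlap in this one. GGTCA, one arm of the estrogen response element, was present once, 234 to 230 bases before the start, and in 35.2% of windows. The full palindromic element was not in the Tfrc window and was in 0.0219% of windows, and the E-box CACGTG was not in it either and was in 5.79%. Windows were at hand for 5 of the 6 genes, and those of Slc11a2, Slc40a1, Ireb2 and Aco1 held none of these letters. A match is a string of letters and not a bound site.

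Array values are normalised signals on the log2 scale, on which a difference of 1 is a fold of 2, and a probe set's value is not set against another's. Median values of the 12 arrays lay between 6.51 and 6.56, and no array stood apart by its median. A gene was called when the adjusted p of limma, over all 14509 genes, was under 0.05.

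Tfrc mRNA was lowest in CL of AI+E2 rats, intermediate with AI alone and high in both groups that received neither. It measured 6.18, 6.20 and 6.38 in AI+E2 CL, 7.32, 7.41 and 7.45 in AI CL, 8.92, 8.26 and 8.57 in VEH CL, and 8.87, 9.23 and 8.97 in day 12 CL. The AI+E2, AI and VEH arrays formed 3 separate ranges with no overlap, and the day 12 range overlapped that of VEH. The group means were 6.25 ± 0.11 with AI+E2, 7.40 ± 0.066 with AI, 8.58 ± 0.33 with VEH and 9.02 ± 0.19 on day 12 (SD of 3 animals each). Spread was widest among VEH animals.

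The difference of AI from VEH was -1.19 ± 0.13 on the log2 scale (SE), a 2.28-fold lower level. With E2 added to AI, Tfrc was lower still: the difference of AI+E2 from AI was -1.14 ± 0.13, again in the downward direction and 2.21-fold lower. Against VEH, AI+E2 was 5.03-fold lower, and against the day 12 group it was 6.82-fold lower, where AI was 3.09-fold lower. The AI+E2 values lay below the medians of their own arrays (6.51 to 6.54), where the lowest value of any probe set on any array was 3.68. These comparisons share arrays, so they are not independent of each other. Leaving out any 1 array kept the AI+E2 difference from VEH between -2.49 and -2.16.

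**Figure D1:**
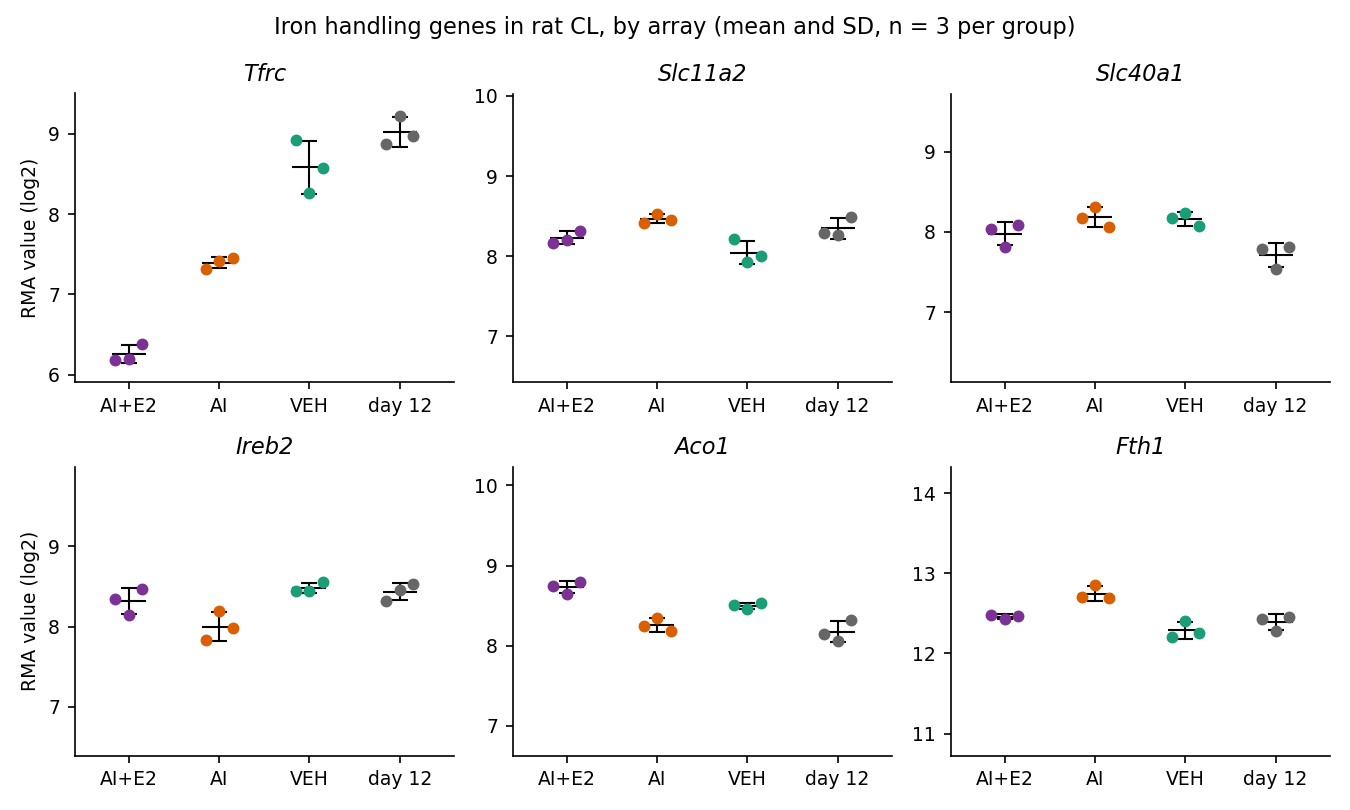
Normalised signal (RMA, log2) of the 6 iron handling genes in each array, by group, with every panel spanning the same log2 range. Points are single animals, and bars are the mean and SD of 3, and Tfrc is lowest with AI+E2 (6.25) and highest on day 12 (9.02) while the other 5 genes vary less.

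Red cell precursors depend on the transferrin receptor, so the erythroid markers are given beside it. The summed linear level of the 8 measured of 13 such markers was 1194 to 1306 in AI+E2 CL, 1980 to 2604 in AI CL, 2310 to 3626 in VEH CL and 1330 to 2084 in day 12 CL. This sum rests on the brightest of the markers. Day 12 sums lay below those of every VEH array, and AI+E2 sums were lowest. Hbb, a β-globin, measured 9.52, 9.31 and 9.34 in AI+E2 CL, against 10.58, 10.20 and 10.52 in AI CL, and fell by 1.04 on the log2 scale (adjusted p = 0.00352). With AI+E2 against AI, 0 of the 8 markers rose by limma, where 8.65% of all genes did. Of the 8, 2 fell, where 4.14% of all genes did, and 6 did not pass. At an unadjusted p under 0.05, 1 rose and 2 fell. None of the 8 was read at 0, since array signal has no true zero. The part of blood cells in the Tfrc values was not tested.

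Markers of other cell types differed between groups as well. The summed level of 11 measured endothelial markers was 5077 to 5387 with AI+E2, 4749 to 5484 with AI, 7003 to 7266 with VEH and 4966 to 5607 on day 12, so that VEH stood alone. Of the 11, 9 rose in VEH against day 12 (6.91% of all genes). Against VEH, 9 fell with AI (11.0%) and 7 with AI+E2 (6.91%). For AI+E2 against AI 0 passed by limma, and at an unadjusted p under 0.05, 2 rose and 1 fell. Smooth muscle and pericyte markers, all 10 measured, summed to 6620 to 6841 with AI+E2, 6391 to 7536 with AI, 7442 to 9182 with VEH and 5922 to 6237 on day 12. Of these markers, 7 rose in VEH against day 12, as 6.91% of all genes did, and 4 fell with AI against VEH, as 11.0% did. The sum over 14 markers of macrophages, which recycle heme iron, was 5200 to 5547 with AI+E2, 5233 to 5630 with AI, 4856 to 4878 with VEH and 4424 to 4739 on day 12. Luteal markers, 9 of 10 measured, summed to 38566 to 39653 with AI+E2, 38199 to 40386 with AI, 35886 to 37306 with VEH and 35185 to 35555 on day 12, a sum that rests on the brightest of them. With AI against VEH, 5 luteal markers rose and 2 fell, where 5.91% of all genes rose and 11.0% fell. Star and Cyp11a1, which begin steroid synthesis, lay between 12.58 and 13.01 on all arrays. Other luteal markers were less steady. Akr1c3 ran from 6.23 to 10.83 over the arrays, with group means of 10.69 with AI+E2, 8.18 with AI, 6.55 with VEH and 9.29 on day 12. Cyp19a1, the gene of aromatase, ran from 11.25 to 12.11 and Prlr from 10.11 to 10.85. Markers of fibroblasts and matrix summed to 4789 to 4984 with AI+E2, 4258 to 5011 with AI, 4233 to 5155 with VEH and 4243 to 4526 on day 12. Those of granulosa cells and oocytes, 9 of 11 measured, summed to 1513 to 1541 with AI+E2, 1516 to 2905 with AI, 1079 to 2367 with VEH and 1158 to 2465 on day 12, ranges that overlapped among all groups. The part of these shifts in the values of the iron handling genes was not tested.

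Slc11a2, the proton-coupled carrier that moves ferrous iron out of endosomes, was highest with AI. Its values were 8.17, 8.20 and 8.32 in AI+E2 CL, 8.42, 8.53 and 8.45 in AI CL, 8.21, 7.93 and 8.00 in VEH CL, and 8.29, 8.26 and 8.49 in day 12 CL. All AI arrays lay above all VEH and all AI+E2 arrays, which overlapped each other. The difference was 0.42 ± 0.081 for AI from VEH and -0.24 ± 0.081 for AI+E2 from AI on the log2 scale (SE). Across treatments it thus moved opposite to Tfrc between AI and VEH and in the same direction between AI+E2 and AI.

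Slc40a1, ferroportin, the only known iron exporter of mammalian cells, had its lowest mean on day 12. It measured 8.04, 7.81 and 8.08 in AI+E2 CL, 8.17, 8.31 and 8.06 in AI CL, 8.17, 8.24 and 8.07 in VEH CL, and 7.78, 7.54 and 7.81 in day 12 CL. The 3 day 16 groups overlapped one another, and the AI and VEH arrays all lay above the day 12 arrays. The difference of AI from VEH was 0.018 ± 0.091 and that of AI+E2 from AI was -0.21 ± 0.091 on the log2 scale (SE).

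The 2 iron regulatory proteins had their lowest day 16 means with AI. Ireb2, the regulator that is degraded when iron is plentiful, measured 8.35, 8.14 and 8.47 in AI+E2 CL, 7.83, 8.19 and 7.98 in AI CL, 8.44, 8.44 and 8.55 in VEH CL, and 8.32, 8.45 and 8.53 in day 12 CL. Every AI array was below every VEH array, and the AI and AI+E2 arrays overlapped. Its difference was -0.47 ± 0.096 for AI from VEH, a 1.39-fold lower level, and 0.32 ± 0.096 for AI+E2 from AI.

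Aco1, the cytosolic aconitase that turns into an RNA-binding regulator when it loses its iron-sulfur cluster, measured 8.74, 8.65 and 8.80 in AI+E2 CL, 8.25, 8.35 and 8.18 in AI CL, 8.51, 8.46 and 8.53 in VEH CL, and 8.15, 8.06 and 8.32 in day 12 CL. The 3 day 16 groups did not overlap, with AI+E2 on top, then VEH, then AI. Its difference was -0.24 ± 0.072 for AI from VEH and 0.47 ± 0.072 for AI+E2 from AI, a 1.38-fold higher level. Against VEH, AI+E2 was higher by 0.23.

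Fth1, the ferritin subunit that oxidises iron for storage, was highest with AI. It measured 12.48, 12.43 and 12.47 in AI+E2 CL, 12.70, 12.85 and 12.69 in AI CL, 12.20, 12.41 and 12.25 in VEH CL, and 12.43, 12.28 and 12.46 in day 12 CL. The AI arrays lay above every other array. The difference of AI from VEH was 0.46 ± 0.071, 1.37-fold higher, and that of AI+E2 from AI was -0.29 ± 0.071, 1.22-fold lower. These values are near the top of the scale, whose highest value on any array was 13.38, and the 2 Fth1 probe sets differed by at most 0.037 on any array, so they add no separate reading. Ferritin has many processed copies in the rat genome, and which of them the probes read was not tested. Normalising the arrays again gave 0.34 for AI from VEH and 0.055 in place of 0.17 for AI+E2 from VEH.

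**Figure D2:**
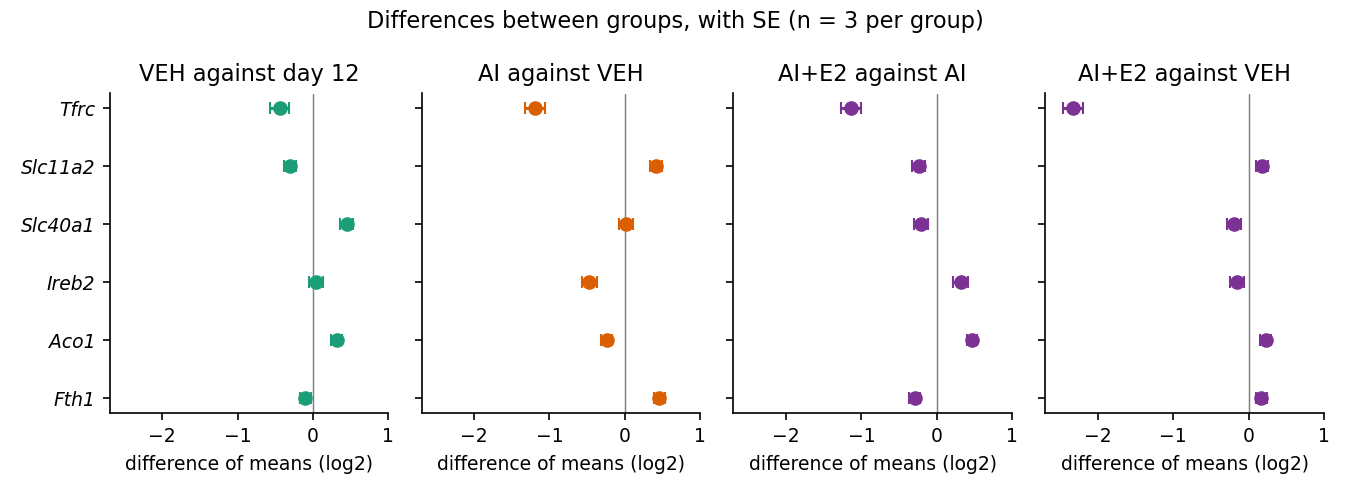
Differences of group means (log2) of the 6 genes in 4 comparisons, with the SE of the fit over all 12 arrays and 3 animals a group. Only Tfrc reaches past 1 in either direction, at -1.19 for AI from VEH, -1.14 for AI+E2 from AI and -2.33 for AI+E2 from VEH.

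Counted over the 6 genes, 5 were past the threshold for AI against VEH (2 higher, 3 lower), where 17.0% of all genes were, 5.91% higher and 11.0% lower. For AI+E2 against AI it was 4 (2 higher, 2 lower), where 12.8% of all genes were, 8.65% higher and 4.14% lower. For AI+E2 against VEH it was only Tfrc, lower, where 13.0% of all genes were, 6.11% higher and 6.91% lower, and Aco1, higher by 0.23, joined it in 4 of the other settings. The arrays of the compared groups did not overlap in 5 of the 6 genes for AI against VEH (31.4% of all genes), in 4 for AI+E2 against AI (31.4%) and in 3 for AI+E2 against VEH (29.4%). With the methods' t-test 0 of the 5 passed for AI against VEH, 2 of the 4 (Tfrc and Aco1) for AI+E2 against AI, and Tfrc for AI+E2 against VEH. Nothing is read from these counts, because the genes were drawn up with the treatment results known. The median difference over all genes was 0.013 for AI from VEH, -0.022 for AI+E2 from AI and -0.0064 for AI+E2 from VEH.

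The comparison of VEH on day 16 with untreated day 12 differs in both day of pregnancy and vehicle dosing, which cannot be told apart. It shares the VEH arrays with the treatment comparisons, and the genes were chosen with earlier results of these data known. Its adjusted p-values are therefore descriptions and not independent tests. Slc40a1 was higher in VEH than on day 12 by 0.45 ± 0.091 (limma adjusted p = 0.00501) and Aco1 by 0.32 ± 0.072 (adjusted p = 0.00958), with every VEH array above every day 12 array for both. Slc11a2 differed by -0.30 ± 0.081, with an adjusted p of 0.0297 and no overlap of the groups. Tfrc differed by -0.44 ± 0.13, 1.36-fold lower in VEH, with overlapping arrays and an adjusted p of 0.0447. Ireb2 (0.041 ± 0.096, adjusted p = 0.840) and Fth1 (-0.10 ± 0.071, adjusted p = 0.431) did not pass.

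So 4 of the 6 genes passed, 2 higher and 2 lower, where 10.1% of all genes did, 6.91% higher and 3.23% lower. The arrays did not overlap in 3 of the 6, where they did not in 24.3% of all genes. The calls of Slc40a1 and Aco1 held without any 1 array and were lost with the methods' t-test (adjusted p = 0.190 and 0.213). The Tfrc call was lost without VEH replicate 2 (-0.28, adjusted p = 0.174), without VEH replicate 3 (-0.44, 0.0967), without day 12 replicate 2 (-0.34, 0.152) or replicate 3 (-0.47, 0.0692), and with the 2 groups fitted alone (0.127). That of Slc11a2 was lost without VEH replicate 2 or 3 or day 12 replicate 1 or 3, with the 2 groups fitted alone (0.0892), and with arrays centred on their medians (-0.28, 0.0607).

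The order of levels across the 4 groups differed from gene to gene. For Tfrc it ran day 12, VEH, AI, AI+E2 from high to low, for Slc11a2 AI, day 12, AI+E2, VEH, and for Slc40a1 AI, VEH, AI+E2, day 12. For Ireb2 it ran VEH, day 12, AI+E2, AI, for Aco1 AI+E2, VEH, AI, day 12, and for Fth1 AI, AI+E2, day 12, VEH. Neighbours in the order were separated without overlap at 2 steps for Tfrc, 2 for Aco1 and 1 for Fth1, and at none for Slc11a2, Slc40a1 or Ireb2. No other gene of the 6 had the order of Tfrc.

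The other genes of iron and heme handling were read from 8 lists, of which 68 of 80 genes were measured. Of these 68, 9 rose and 9 fell with AI against VEH (26.5%, against 17.0% of all genes), 13 rose and 6 fell with AI+E2 against AI (27.9%, against 12.8%), 12 rose and 8 fell with AI+E2 against VEH (29.4%, against 13.0%), and 9 rose and 7 fell in VEH against day 12 (23.5%, against 10.1%). The median difference over the lists was -0.033, 0.058, 0.044 and 0.052 in these comparisons. Adjusted p-values are those of limma over all genes, and the genes described are some of those of smallest p in their list. The lists were drawn up with earlier results of these data known. Their shares and p-values are therefore descriptions and not independent tests. Counts of single lists below are small and are to be set beside the shares of all genes for the same comparison. Of all genes, 5.91% rose and 11.0% fell with AI against VEH, and 8.65% rose and 4.14% fell with AI+E2 against AI. With AI+E2 against VEH 6.11% rose and 6.91% fell, and in VEH against day 12 6.91% rose and 3.23% fell. Calls for Hmox1, Glrx5, Fdx1, Cdc14a, Epas1 and Neo1 between the day 16 groups held in every setting that kept them, and most others named here were lost with the methods' t-test.

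Of 12 genes of iron uptake and reduction, 2 rose and 1 fell with AI. Tf, transferrin itself, measured 8.35, 8.31 and 8.49 in AI+E2 CL, 8.63, 8.66 and 8.61 in AI CL, 8.04, 8.26 and 8.26 in VEH CL, and 8.12, 8.14 and 8.22 in day 12 CL. It rose by 0.45 ± 0.070 with AI against VEH (adjusted p = 0.000297) and fell by 0.25 with AI+E2 against AI (adjusted p = 0.0256), a call that was lost without any of 5 of the 6 arrays. Mcoln1, a lysosomal channel that lets iron out of late endosomes, rose by 0.41 ± 0.065 with AI (adjusted p = 0.000373) and fell by 0.31 with AI+E2 against AI (adjusted p = 0.00425). All 3 AI arrays of both genes lay above all other arrays. Steap1, of the STEAP family, fell by 0.26 with AI (adjusted p = 0.0108, and 0.0593 without AI replicate 1). Its means of 5.48 with AI and 5.75 with VEH lay below the lowest array median, 6.51. Slc39a14, an importer of iron that is not bound to transferrin, rose by 0.30 with AI+E2 against VEH (adjusted p = 0.0113).

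Ncoa4, the receptor that takes ferritin to the lysosome for breakdown, rose by 0.32 with AI+E2 against AI (adjusted p = 0.00396), and was the only call among 4 measured storage genes there, with 0 in both comparisons against VEH by limma and by the methods' t-test (unadjusted p under 0.05 in 1 for AI and 2 for AI+E2). Among 8 genes of export and hepcidin control, 3 rose and 1 fell with AI+E2 against AI. Neo1, a receptor that takes part in hepcidin control, measured 9.36, 9.29 and 9.39 in AI+E2 CL, 8.74, 8.94 and 8.85 in AI CL and 8.59, 8.68 and 8.74 in VEH CL. It rose by 0.50 ± 0.068 with AI+E2 against AI (adjusted p = 0.000108). Cp, the ferroxidase that loads iron onto transferrin, rose by 0.48 ± 0.076 (adjusted p = 0.000450), and Hfe, which binds the transferrin receptor, fell by 0.29 with AI (adjusted p = 0.00277) and rose by 0.26 with AI+E2 against AI (adjusted p = 0.00873). Hamp, hepcidin, fell by 0.37 with AI+E2 against AI (adjusted p = 0.0477), a call that was lost without any of 5 of the 6 arrays.

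Of 4 measured genes of iron regulatory protein control or with iron-responsive elements of their own, Cdc14a, a phosphatase whose human mRNA carries such an element, rose most with E2. It measured 9.43, 9.20 and 9.43 in AI+E2 CL, against 8.30, 8.49 and 8.27 in AI CL and 8.50, 8.51 and 8.59 in VEH CL, a rise of 1.00 ± 0.078 over AI (adjusted p = 4.70e-07). The AI+E2 arrays stood above all others. Epas1, the hypoxia-inducible factor whose mRNA also carries an iron-responsive element, was 9.12, 8.98 and 9.10 in AI+E2 CL, 9.23, 9.32 and 9.22 in AI CL and 9.69, 9.78 and 9.65 in VEH CL. It fell by 0.45 ± 0.063 with AI (adjusted p = 0.000104) and by 0.64 ± 0.063 with AI+E2 (adjusted p = 5.88e-06) against VEH. Epas1 is strongly made by endothelium, whose markers stood apart in VEH in the same way, and the part of endothelial RNA was not tested. Fbxl5, the ligase subunit that marks Ireb2 for degradation, rose by 0.27 with AI against VEH (adjusted p = 0.0146), a call that was lost without VEH replicate 3 (0.0661) or AI replicate 2 (0.0548).

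Of 11 measured genes of heme uptake, breakdown and export, 4 rose and 1 fell with AI. Hmox1, heme oxygenase, which frees iron from heme, measured 6.47, 6.57 and 6.56 in AI+E2 CL, 6.96, 7.03 and 6.87 in AI CL, 6.03, 6.07 and 6.08 in VEH CL, and 6.15, 6.11 and 6.15 in day 12 CL. It rose by 0.89 ± 0.057 with AI against VEH (adjusted p = 2.89e-08) and fell by 0.42 ± 0.057 with AI+E2 against AI (adjusted p = 0.000115), with no overlap of the 3 day 16 groups. Its signal was low, however. All VEH and day 12 values and that of AI+E2 replicate 1 lay below the medians of their arrays. Macrophages, which make much Hmox1, had higher marker sums in both AI groups than in VEH, and their part was not tested. Blvra, which turns the product of heme oxygenase into bilirubin, fell by 0.45 with AI (adjusted p = 0.00202) and rose by 0.33 with AI+E2 against AI (adjusted p = 0.0231). The second call was lost without AI replicate 3 (0.22, adjusted p = 0.107), AI+E2 replicate 1 (0.28, 0.117) or AI+E2 replicate 3 (0.32, 0.0773). Hpx, the heme carrier hemopexin, rose by 0.37 and Lrp1, the receptor for its complex with heme, by 0.25 with AI+E2 against AI (adjusted p = 0.00337 and 0.0332, the second lost without any of 4 of the 6 arrays).

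Of 7 measured genes of heme synthesis, 0 passed for AI against VEH by limma or by the methods' t-test, and 2 did so at an unadjusted p under 0.05. With AI+E2, Urod and Cpox, enzymes of the later steps of the pathway, rose over AI by 0.28 (adjusted p = 0.0145) and 0.22 (adjusted p = 0.0347), and over VEH by 0.24 (adjusted p = 0.0338, lost without any of 5 of the 6 arrays) and 0.27 (adjusted p = 0.0101). The Urod call against AI was lost without AI replicate 1 or AI+E2 replicate 1, and that of Cpox without AI replicate 1 or 3 or AI+E2 replicate 1 or 3.

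**Figure D3:**
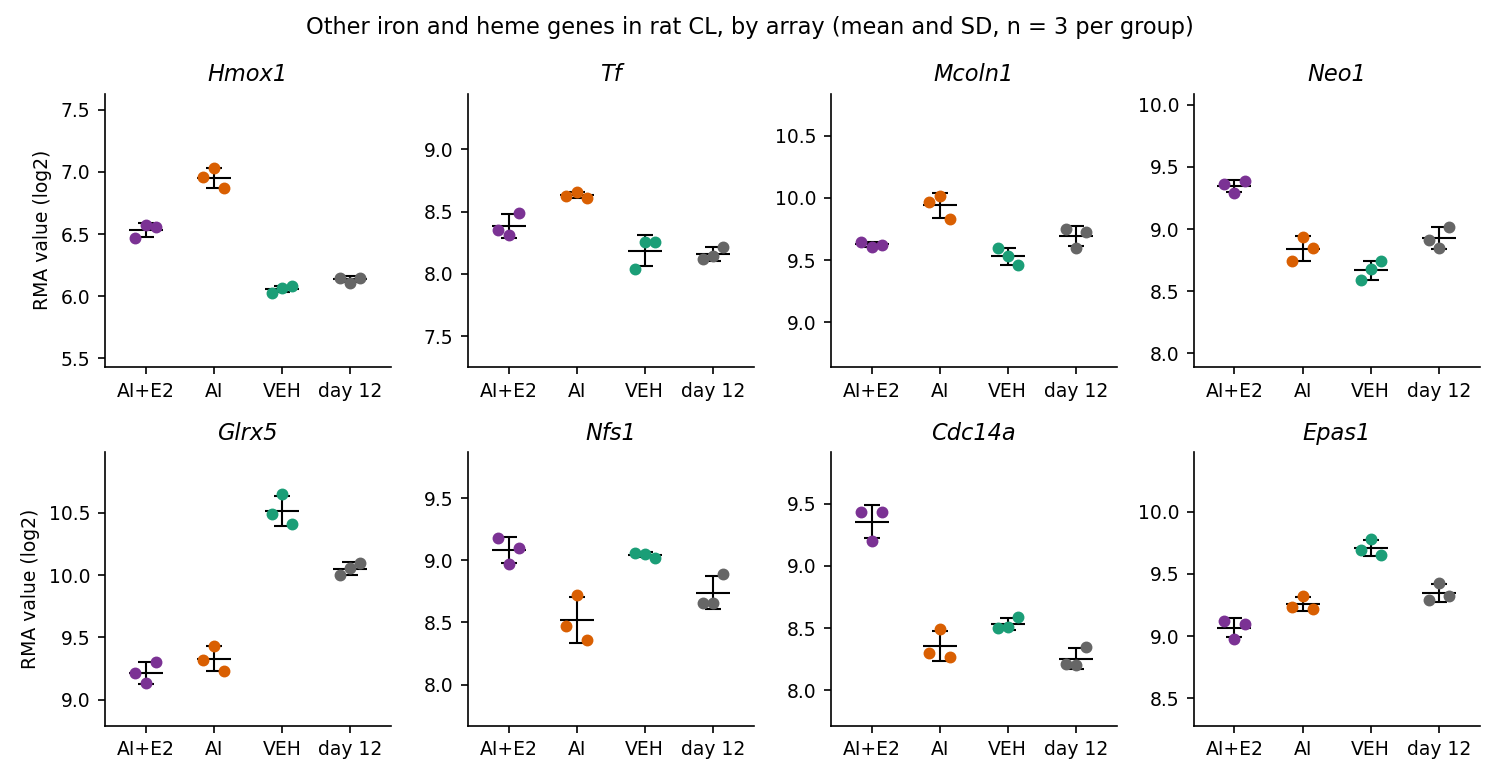
Normalised signal (RMA, log2) of 8 other iron and heme genes in each array, by group, each panel over the same log2 range, with the mean and SD of 3 animals. Hmox1, Tf and Mcoln1 peak in AI CL (means 6.95, 8.63 and 9.94), Cdc14a and Neo1 stand apart in AI+E2 CL (9.35 each), and Glrx5 and Epas1 are lower in AI+E2 and AI CL than in VEH CL.

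The 2 widest differences among all list genes were in mitochondrial iron handling, and they ran in opposite directions. Glrx5, a glutaredoxin of iron-sulfur cluster assembly, measured 9.21, 9.13 and 9.30 in AI+E2 CL, 9.32, 9.43 and 9.23 in AI CL, 10.49, 10.65 and 10.41 in VEH CL, and 10.00, 10.06 and 10.10 in day 12 CL. It fell by 1.19 ± 0.075 with AI (adjusted p = 2.47e-08), and AI+E2 differed from AI by -0.12 ± 0.075 (adjusted p = 0.383). Fdx1, the iron-sulfur protein that hands electrons to the cholesterol side-chain cleavage enzyme, measured 11.30, 11.21 and 11.39 in AI+E2 CL, 11.21, 11.24 and 11.28 in AI CL, 10.06, 10.01 and 10.11 in VEH CL, and 10.65, 10.52 and 10.80 in day 12 CL. It rose by 1.18 ± 0.072 with AI (adjusted p = 1.66e-08), and AI+E2 differed from AI by 0.058 (adjusted p = 0.672). For both genes the 2 groups that received AI lay on the far side of day 12 from VEH, with no overlap.

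Nfs1, the desulfurase that supplies sulfur for the clusters, followed another course. It measured 9.18, 8.97 and 9.10 in AI+E2 CL, 8.47, 8.72 and 8.36 in AI CL and 9.06, 9.05 and 9.02 in VEH CL, and so fell by 0.53 ± 0.089 with AI (adjusted p = 0.000554) and rose by 0.57 ± 0.089 with AI+E2 against AI (adjusted p = 0.000450). AI+E2 differed from VEH by 0.036 (adjusted p = 0.876). Slc25a28, an iron importer of the inner mitochondrial membrane, fell by 0.56 with AI+E2 against AI (adjusted p = 0.000190). Over the 16 measured genes of the list, 2 rose and 4 fell with AI, and 2 rose and 2 fell with AI+E2 against AI.

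**Figure D4:**
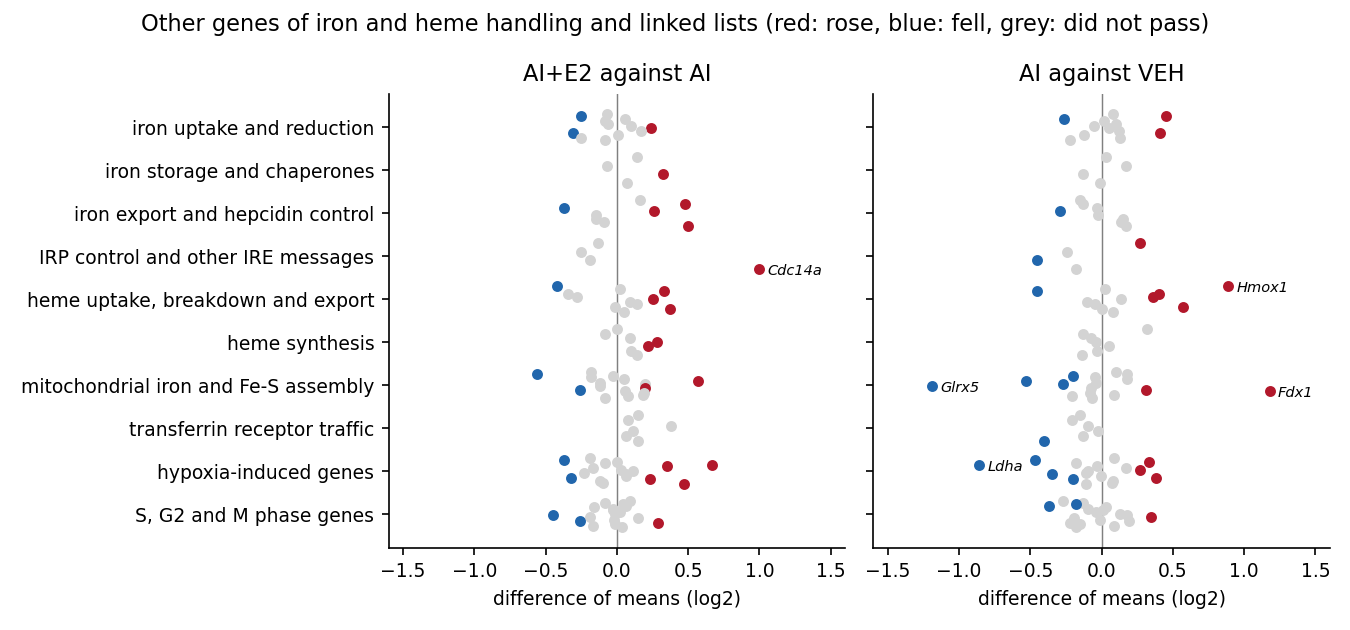
Differences of group means (log2) of every measured gene of the iron, heme, receptor traffic, hypoxia and cell cycle lists, for AI+E2 against AI on the left and AI against VEH on the right, one row per list. Colour marks genes past the threshold, and labels mark those of them that differ by at least 0.8, which are Cdc14a (1.00) on the left and Hmox1 (0.89), Glrx5 (-1.19), Fdx1 (1.18) and Ldha (-0.86) on the right.

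Of 6 measured genes of transferrin receptor traffic, only Tsg101, of the endosomal sorting complex, fell with AI against VEH, and 0 passed for AI+E2 against AI by limma or by the methods' t-test, with 1 at an unadjusted p under 0.05. Since Tfrc is known as a hypoxia-induced gene and as one of dividing cells, both programs were read too. Of 17 hypoxia-induced genes 3 rose and 4 fell with AI (17.0% of all genes were called), and 4 rose and 2 fell with AI+E2 against AI (12.8%). Vegfa, the vascular growth factor, measured 9.81, 9.76 and 9.86 in AI+E2 CL, 10.26, 10.07 and 10.22 in AI CL and 10.66, 10.69 and 10.60 in VEH CL. It fell by 0.47 with AI against VEH (adjusted p = 7.64e-05) and by 0.37 with AI+E2 against AI (adjusted p = 0.000966). Ldha, lactate dehydrogenase, fell by 0.86 with AI (adjusted p = 9.66e-06) and rose by 0.67 with AI+E2 against AI (adjusted p = 0.000164), but its probe sets disagreed, and their mean gave -0.68 (adjusted p = 0.277) and -0.068 (adjusted p = 0.938). Slc2a1, a glucose transporter, rose by 0.33 with AI (adjusted p = 0.00165). Among the other calls for AI+E2 against AI, Kdm3a rose by 0.47 (adjusted p = 0.00110) and Pgk1 by 0.35 (adjusted p = 0.00288). Aldoa fell by 0.32 there (adjusted p = 0.00252).

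Of 18 measured genes of S, G2 and M phase, 1 rose and 2 fell with AI, and 1 rose and 2 fell with AI+E2 against AI, with list medians of -0.070 and -0.016. Of all genes, 17.0% were called for AI against VEH and 12.8% for AI+E2 against AI. Rrm2, the iron-dependent subunit of ribonucleotide reductase, fell by 0.45 with AI+E2 against AI (adjusted p = 0.00345). Against day 12, 6 of the 18 rose and 0 fell in VEH by limma (11 rose and 1 fell at an unadjusted p under 0.05, and 0 passed by the methods' t-test), among them Top2a, the topoisomerase of dividing cells, by 0.57 (adjusted p = 0.00170). Of all genes, 6.91% rose and 3.23% fell in that comparison.

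In VEH against day 12, which differ in day and vehicle, Fdx1 fell by 0.60 ± 0.072 (adjusted p = 6.40e-05) and Glrx5 rose by 0.46 ± 0.075 (adjusted p = 0.000822). Hmox1 differed by -0.075 (adjusted p = 0.472) and Tf by 0.026 (adjusted p = 0.865). Epas1 rose by 0.36 (adjusted p = 0.00155), as 9 of 11 endothelial markers and 6.91% of all genes did. Blvrb, a biliverdin reductase, fell by 0.59 (adjusted p = 0.00521), with means of 5.65 in VEH and 6.24 on day 12 that lay below the lowest array median, 6.51. Slc48a1, which brings heme out of endosomes, rose by 0.24 (adjusted p = 0.0102, and 0.0575 with the 2 groups fitted alone). Ftl1, the ferritin light chain, rose by 0.25 (adjusted p = 0.0455), a call that was lost without any of 5 of the 6 arrays. All 26 calls among the 103 genes of the 10 lists were lost with the methods' t-test.

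Genes whose course over the 12 arrays was most like that of Tfrc were sought among 259 genes, Tfrc included, whose group means spanned at least 1 on the log2 scale. The closest by Pearson's r were Ctnnd1, the catenin of cell junctions (0.980), Net1 (0.979), Gna11, a G protein α subunit (0.972), Slc35g1, of the solute carriers (0.971), and Gpr183, a receptor for oxysterols (0.959). The most opposed were Tns1, tensin (-0.960), Tmem178a (-0.960), Mfge8, a bridge protein for taking up dying cells (-0.957), Rhobtb1 (-0.947), and Chrna5, a nicotinic receptor subunit (-0.907). The points of each r share the 4 groups and the normalisation, so they are not independent.

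Gna11 averaged 8.25 in AI+E2 CL, 9.06 in AI CL, 9.74 in VEH CL and 9.69 on day 12, and Ctnnd1 averaged 9.67 in AI+E2 CL, 10.24 in AI CL, 10.60 in VEH CL and 10.69 on day 12. Chrna5 averaged 8.30 in AI+E2 CL, 6.79 in AI CL, 6.39 in VEH CL and 6.25 on day 12. None of these 10 is in the lists of iron and heme genes. Tfrc covered a wider range than any of the 5 genes most like it.

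**Figure D5:**
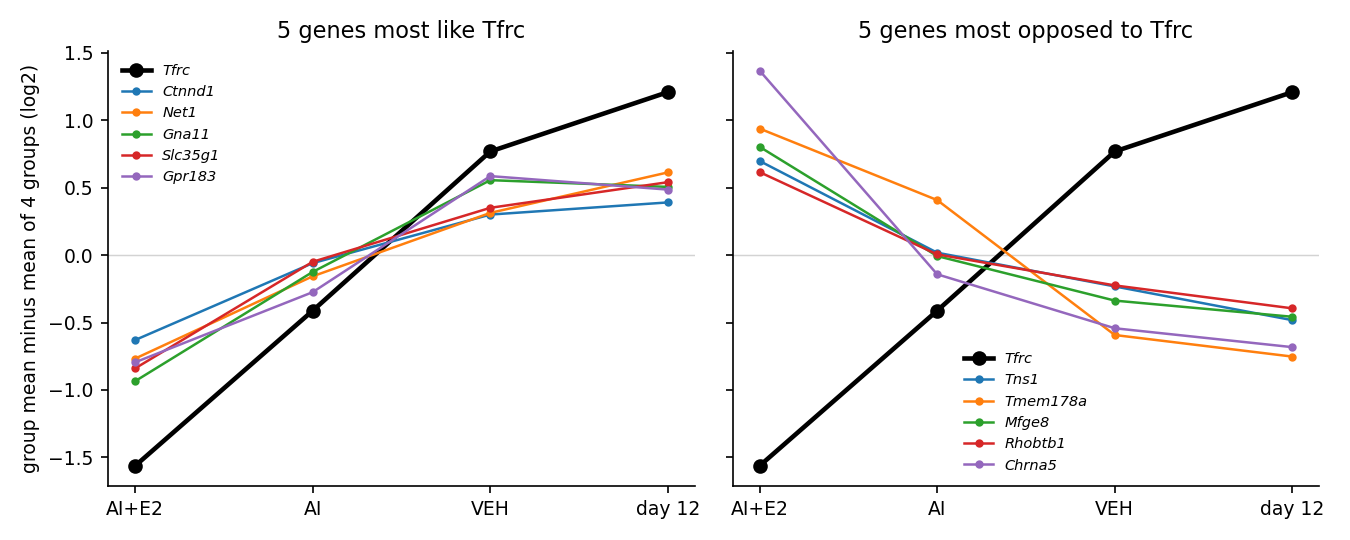
Group means, less the mean of the 4 groups (log2), of Tfrc in black beside the 5 genes most like it (left) and the 5 most opposed to it (right) over 12 arrays. Tfrc has the steepest course among the genes on the left, and each of the 5 on the right is highest in AI+E2 CL.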

How the data were processed

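RNA of whole CL from 12 pregnant rats (4 groups of 3, 1 animal per array) had been hybridised to Affymetrix Rat Gene 1.0 ST arrays. The deposited values are log2 signals that the authors made by RMA (background correction, quantile normalisation, probe set summary) in R 2.12.2. No source used here says which arrays were normalised together. Probe sets with 1 gene symbol in the platform annotation (15310 of 29214, with 3 more named through the study's tables) gave 14509 genes. Where a gene had several (527 genes), a probe set named in the study's tables was kept first, and otherwise the one of highest mean. All genes of the 4 groups were fitted together with limma 3.58.1 in R 4.3.3 (lmFit, eBayes, 8 residual degrees of freedom), with Benjamini-Hochberg adjustment over all genes at 0.05. The script was tested on simulated data. The 6 genes and all gene lists were chosen with earlier results of these data known. In each list and comparison up to 4 called genes of smallest p were open to naming, and a few more are given because another comparison named them. Alternatives left out arrays, dim genes (25% or 50%) or the shared fit, recentred or renormalised arrays, blocked on replicate number, or used the methods' t-test. With 3 arrays against 3, an exact two-sided permutation test cannot go below 0.1, and 3 arrays a group limit the precision. Sequences are from RefSeq. Python 3.11.15 (numpy 2.4.6, pandas 2.3.3, matplotlib 3.10.9) made tables and plots.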

Additional observations from a re-analysis of the deposited data

How the results depend on the processing

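Apart from settings that left out an array, 301 values kept their direction and side of the threshold or moved little, 21 moved, 9 lost their call and 1 turned. The 9 are all from VEH against day 12, the comparison in which calls of the 6 genes are given singly, and calls lost elsewhere are given as counts. For Tfrc in VEH against day 12 the difference of -0.44 lost its call with the 2 groups fitted alone (adjusted p = 0.127), with the methods' t-test (0.436) and with arrays centred on their medians (-0.42, 0.0702), and ran from -0.61 to -0.28 when 1 array was left out. Ireb2 in the same comparison turned to -0.017 when arrays were quantile normalised again and to -0.014 without day 12 replicate 1 (range -0.014 to 0.090 over the left-out arrays), and neither value passed.

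Counts of calls in VEH against day 12 were 1472 genes in all, 917 with the 2 groups alone and 57 with the t-test. For the 6 genes they were 4, with 2 for the 2 groups alone, 2 for centred arrays, 0 for the t-test and 2 to 4 without 1 array. For the 103 list genes they were 26, with 17 for the 2 groups alone, 0 for the t-test and 15 to 24 without 1 array (fewest without day 12 replicate 1 or VEH replicate 2). The t-test gave 665 of 2460 genes, 0 of the 5 and 7 of 28 list genes for AI against VEH, 765 of 1856, 2 of the 4 and 7 of 28 for AI+E2 against AI, and 566 of 1888 and 11 of 29 list genes for AI+E2 against VEH. Without 1 array, list genes ranged from 17 to 28 for AI+E2 against AI (fewest without replicate 1 of AI or of AI+E2) and from 18 to 26 for AI+E2 against VEH (fewest without AI+E2 replicate 1), where all genes ranged from 1253 to 1605. For AI+E2 against VEH, 2 of the 6 genes passed in place of 1 with the 2 groups alone, without the dimmest 25% or 50% of genes, and with arrays normalised again. The causes of these changes were not tested, apart from the fewer samples or genes that a setting itself leaves.

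Replicate numbers are shared by the groups but pair no animals. Of 18 same-numbered pairs 4 had deviations correlated above 0.1 (range -0.486 to 0.339), and 0 arrays correlated best with their own number throughout. With the replicate block, Tfrc in VEH against day 12 kept -0.44 at an adjusted p of 0.0710, no other call of the 6 genes was lost, and 1268 genes in all were called in place of 1472.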
